A study of Rattus norvegicus with 12 samples.

Results

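The pyramidal layer of hippocampal area CA1 is stacked into a deep sublayer, next to the stratum oriens, and a superficial sublayer, next to the stratum radiatum. In 100 of 32662 rat genes, RNA reached a set mean level and was higher in deep than in superficial CA1 by a set margin. The margin was reached in every animal examined, 3 control and 3 epileptic. These genes were chosen by a rule on the measured values. Levels are given in CPM, counts in a gene per 1000000 gene counts, with 2 very abundant identifiers left out. A gene needed a mean CPM of at least 5 over the 12 libraries. It also needed a deep minus superficial difference of at least 0.3 in log2(CPM + 1) in each of the 6 animals. Of the 10923 genes with a mean CPM of at least 5, 100 met the rule (0.915%). The same rule turned to the superficial side was met by 61 (0.558%). As the rule used the sublayer contrast of all 12 libraries, the sublayer values of the 100 genes are a description without a test.

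Deep and superficial CA1 pyramidal cells are made at different times in development and differ in their inputs and targets. Many superficial cells contain the calcium-binding protein calbindin, whereas deep cells as a rule lack it and receive the stronger inhibition from parvalbumin basket cells. Kainate is an agonist of ionotropic glutamate receptors, and the seizures that it sets off are followed weeks later by a chronic epilepsy in which CA1 loses neurons and gains reactive glia.

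All animals were adult male Wistar rats, with an age of 45 to 50 days in the labels. The 3 epileptic rats had been given 5 mg/kg kainate every hour until status epilepticus, had received 4 mg/kg diazepam to end it, and were sampled 6 to 8 weeks later. If these rats were adult when treated, the age in the labels is not their age at sampling. Seizures were seen or recorded in a subset of the epileptic animals of the study. The 3 control rats had been given vehicle, either saline or DMSO, had been handled alike, and had no seizures. Cell bodies of each sublayer were cut by laser from 20 µm sections, so that every animal gave 1 deep and 1 superficial library. The files name genes by Ensembl identifiers alone, and 0 of 32662 could be paired with a symbol, so that no function is given to any gene and the CA1 label could not be checked against marker genes. In tissue of this kind, more cells of a type in the deep cut and more RNA per cell cannot be told apart.

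The libraries held 16135358 to 25893962 counts in genes. The part of all tallied alignments that lay outside annotated exons was 35.8 to 44.0% in the 6 control libraries. In the epileptic rats this share was 43.0% and 37.7% in the deep and superficial library of animal 1, 26.7% and 25.3% in animal 2, and 22.3% and 25.6% in animal 3. Animal 1 thus lay at or near the control range, and animals 2 and 3 lay below it.

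The 100 genes were read from a wide range of levels. Their mean CPM ran from 5.10 to 837 with a median of 25.0, and the median of all 10923 genes was 36.3. A mean CPM below 10 was found in 19 genes, and 14 had at least 100. The 100 genes together took 0.720 to 0.832% of the CPM total in the deep libraries and 0.461 to 0.560% in the superficial ones. The 2 identifiers left out of that total held 14.75 to 28.47% of all gene counts in deep and 11.15 to 24.97% in superficial libraries. Their share was higher in the deep library of every animal. Among the 100 genes, the lowest count of any gene in any library was 21. In 75 genes all 12 libraries held at least 100 counts, and in 11 genes at least 1 library held fewer than 50. The standard error that counting alone gives to the log2 ratio of 1 animal was 0.10 at the median of all 100 genes and 0.20 for the 19 genes below a mean CPM of 10, with a largest value of 0.38. It covers counting error only, so the differences of the most weakly counted genes are known less well in a single animal than over all 6.

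**Figure D1:**
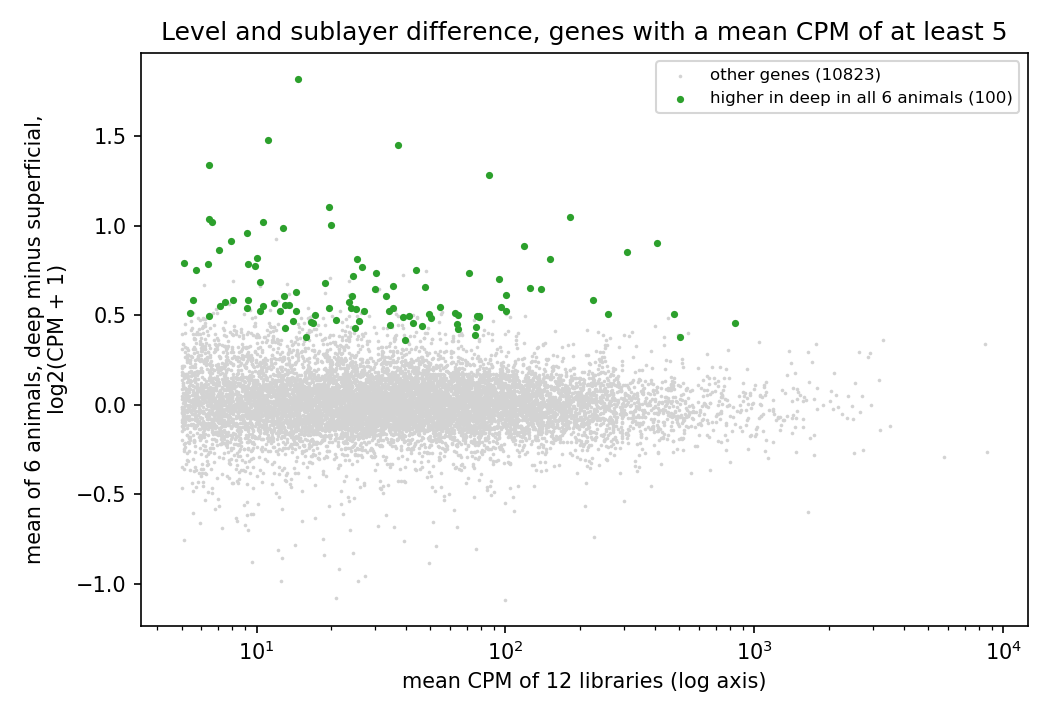
Mean CPM over the 12 libraries (log axis) against the mean deep minus superficial difference of the 6 animals in log2(CPM + 1), 1 point per gene with a mean CPM of at least 5. The 100 genes of the rule (green) lie between 0.36 and 1.82 over the whole range of levels from 5.10 to 837 CPM, and the other genes (grey) centre near 0.

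Most of the differences between the sublayers were modest. The mean difference over the 6 animals ranged from 0.36 to 1.82 in log2(CPM + 1), with a median of 0.57 and quartiles of 0.50 and 0.77. It was at least 1 in 11 genes, between 0.5 and 1 in 63 and below 0.5 in 26. In 19 genes the difference was at least 0.5 in all 6 animals, and in 4 genes it was at least 1 in all of them. At the limit of the rule the genes formed a continuum. The smallest of the 6 differences was 0.3005 and 0.3024 in the last 2 genes inside, and 0.2998 and 0.298 in the first 2 outside. It lay between 0.3 and 0.35 in 29 genes of the 100 and between 0.25 and 0.3 in 45 genes that were left out.

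The gene with the widest gap between the sublayers was ENSRNOG00000006200. Its deep libraries had 15.2, 14.3 and 27.2 CPM in control animals 1, 2 and 3, and the superficial libraries of the same animals had 3.51, 3.22 and 6.56 CPM. In epileptic animals 1, 2 and 3 the deep libraries had 27.9, 34.8 and 20.6 CPM and the superficial ones 5.32, 9.25 and 7.66 CPM. Control animal 3 was the highest of the controls in both sublayers, and every deep library lay above every superficial one. The difference was 1.84, 1.86 and 1.90 in log2(CPM + 1) in the controls, close together although the level of the gene varied. Among the epileptic rats it was 2.20, 1.80 and 1.32.

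ENSRNOG00000030877 came next. Control animals 1, 2 and 3 had 10.5, 10.7 and 11.6 CPM in deep and 3.51, 3.60 and 5.46 CPM in superficial CA1. The epileptic animals had 20.4, 28.2 and 20.7 CPM in deep and 4.42, 6.89 and 7.54 CPM in superficial CA1. The deep libraries were again above all superficial ones, and the deep epileptic libraries above all deep control ones. The difference was 1.35, 1.35 and 0.97 in log2(CPM + 1) in controls and 1.98, 1.89 and 1.34 in epileptic rats.

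**Figure D2:**
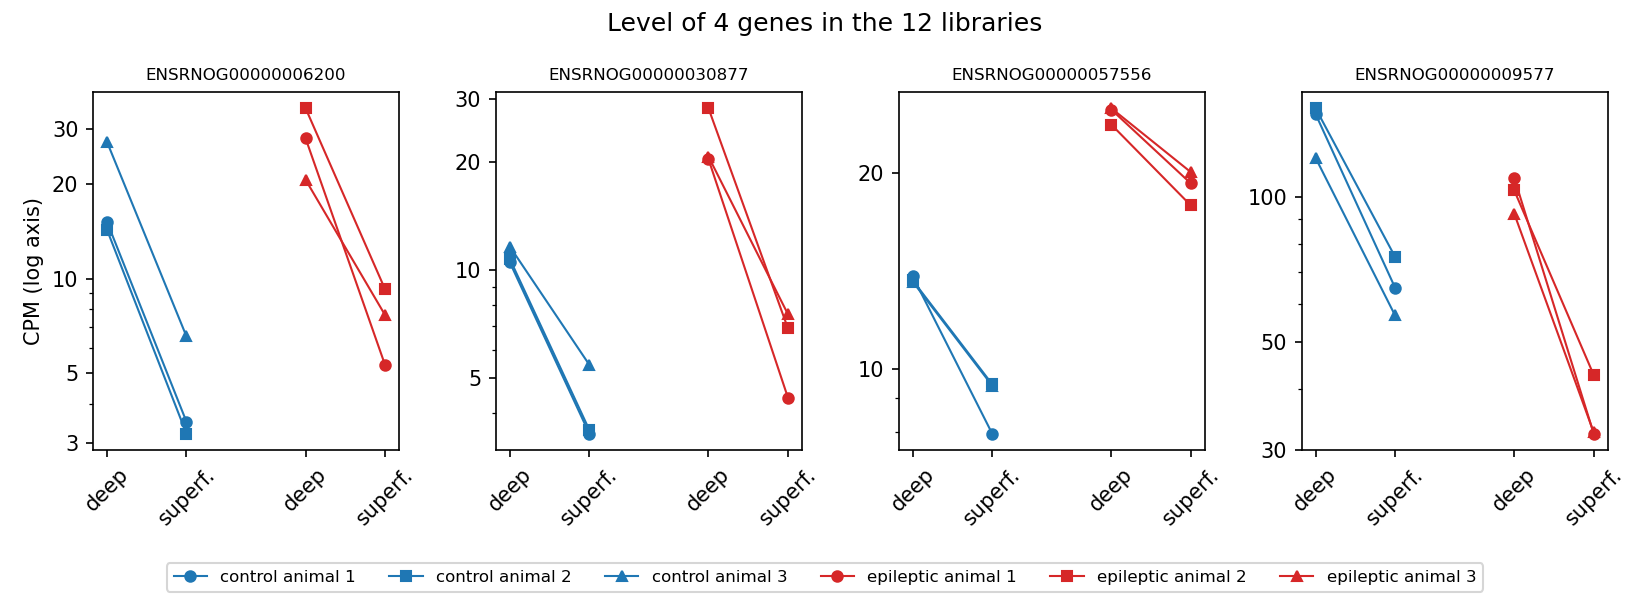
CPM (log axis) of 4 of the 100 genes in the 12 libraries, with a line joining the deep and the superficial library of each animal (control blue, epileptic red, symbols for animals 1 to 3). Every line falls from deep to superficial, and in ENSRNOG00000057556 all 3 epileptic animals lie above all 3 controls in both sublayers, whereas in ENSRNOG00000009577 they lie below.

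The gene with the most reads among the 100 had a small but even difference. It had 973, 896 and 1017 CPM in deep and 714, 677 and 742 CPM in superficial CA1 of control animals 1, 2 and 3. In epileptic animals it had 997, 957 and 970 CPM in deep and 697, 727 and 672 CPM in superficial CA1. No superficial library reached the lowest deep library, and within a sublayer control and epileptic rats overlapped. Its difference ranged from 0.40 to 0.53 in log2(CPM + 1). At the other end, the 3 genes with the lowest mean levels, 5.10, 5.40 and 5.55 CPM, had differences of 0.48 to 1.12, 0.40 to 0.69 and 0.35 to 0.94.

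The animals did not contribute evenly to the size of the difference. Its median over the 100 genes was 0.60, 0.58 and 0.55 in log2(CPM + 1) in control animals 1, 2 and 3. For epileptic animals 1, 2 and 3 it was 0.64, 0.51 and 0.48. The same median over all 10923 genes was between −0.03 and 0.03 in all 6 animals, and was lowest in epileptic animal 3. Epileptic animal 1 gave the largest of the 6 differences in 36 of the 100 genes, and epileptic animal 3 the smallest in 37. The matching shares of all genes are not given. Of all genes that passed the level filter in the other 5 animals, 14.7% differed by at least 0.3 in epileptic animal 1. In epileptic animal 3 this share was 4.99%, and these were the highest and lowest shares of the 6 animals. The unevenness is thus not read as one of the 100 genes. The SD of the difference over the 6 animals had a median of 0.15 among the 100 genes and ran from 0.03 to 0.44. In the 3 most variable genes the difference went from 0.40 to 1.62, from 0.44 to 1.75 and from 0.52 to 1.54, and in the 3 least variable ones from 0.36 to 0.43, from 0.42 to 0.50 and from 0.30 to 0.41.

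The rule held every one of the 6 differences at or above 0.3, in both conditions. Under it, the mean difference of the 3 controls had a median of 0.58 in log2(CPM + 1) over the 100 genes, and that of the 3 epileptic rats 0.57. It was larger in controls for 57 genes and larger in epileptic rats for 43. All 3 control differences exceeded all 3 epileptic ones in 14 genes (7.09% of all 10923 genes), and the reverse held in 3 (4.1% of all). As the choice rests on these same values, neither likeness nor difference between the conditions is read from them.

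**Figure D3:**
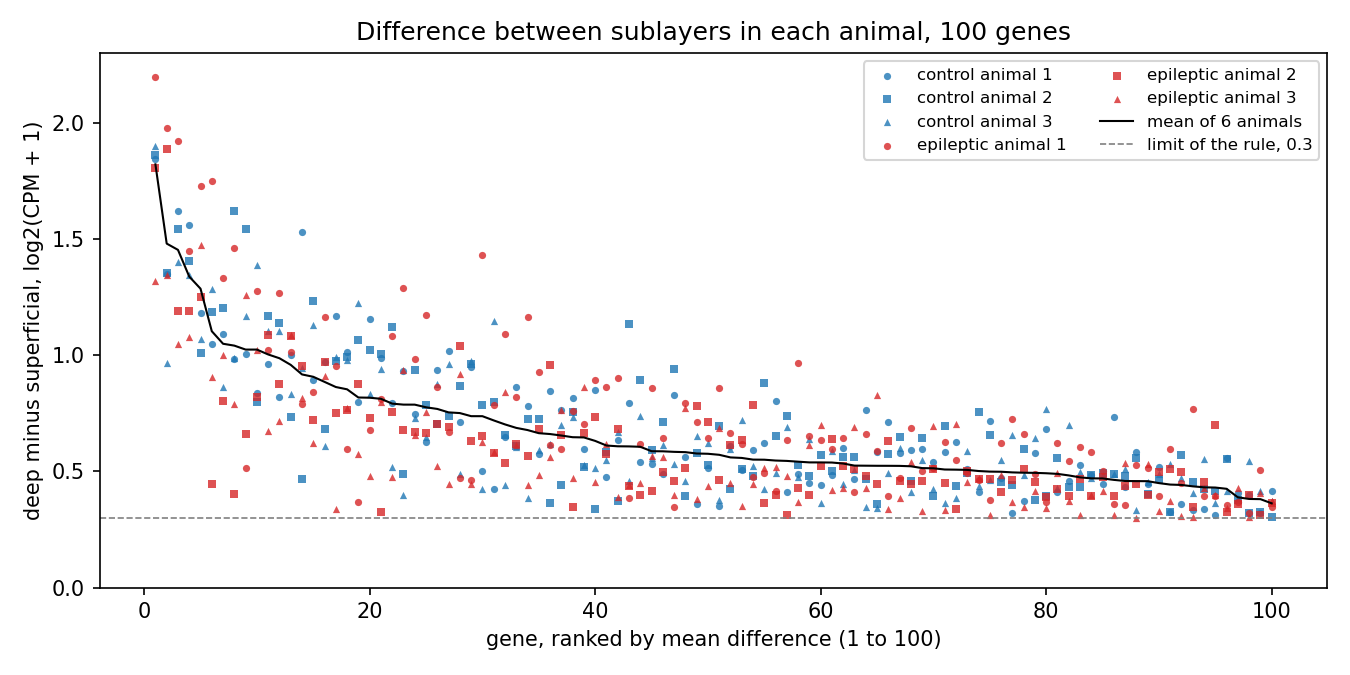
Deep minus superficial difference in log2(CPM + 1) of the 100 genes, ranked by their mean, with 1 symbol per animal (control blue, epileptic red), the mean as a black line and the limit of 0.3 dashed. The mean falls from 1.82 to 0.36, and circles of epileptic animal 1 are often the highest of a gene and triangles of epileptic animal 3 often the lowest.

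Whether a gene chosen in some animals was also higher in deep CA1 of another animal was examined by applying the rule to 5 animals and reading the sixth. With control animal 1, 2 or 3 left out, the rule chose 110, 113 and 112 genes, and the deep library of the animal left out was the higher one in 110, 111 and 111 of them. With epileptic animal 1, 2 or 3 left out it chose 114, 116 and 165 genes, and deep was higher in 113, 115 and 149. These shares are 98.2 to 100% for the first 5 animals and 90.3% for epileptic animal 3, beside 43.7 to 56.5% of all genes that passed the level filter. A difference of at least 0.3 was reached in 85.3 to 90.9% of the chosen genes in 5 of the animals and in 60.0% in epileptic animal 3, beside 4.99 to 14.7% of all genes.

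The difference in the animal left out had a median of 0.58, 0.56 and 0.53 in log2(CPM + 1) in control animals 1, 2 and 3. It was 0.61, 0.47 and 0.37 in epileptic animals 1, 2 and 3, and the medians of all genes lay between −0.02 and 0.03. In the animals used for the choice the median was 0.54 to 0.56 for each of the 6 lists. Epileptic animal 3 was thus the animal with the smallest median difference in the chosen genes. Its median over all genes, −0.02, was also the lowest of the 6 animals, and the part of this offset in the result was not tested. The outside-exon share was low in both libraries of epileptic animal 3 and also in both of epileptic animal 2. The part of this share in the result was not tested.

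**Figure D4:**
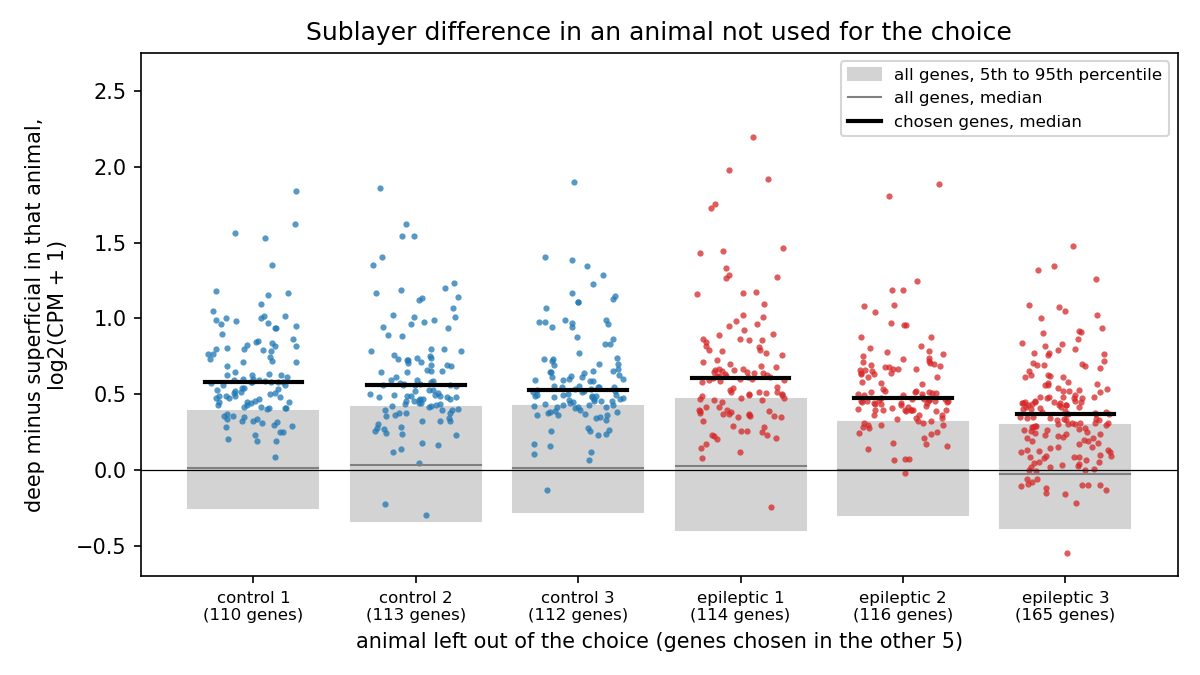
Deep minus superficial difference in log2(CPM + 1) in each animal, for the genes that the rule chose in the other 5 animals (points, with their median in black), over the 5th to 95th percentile (grey box) and median of all genes. The median of the chosen genes lies above the box in every animal, at 0.47 to 0.61 in 5 animals and at 0.37 in epileptic animal 3, where the points reach lowest.

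The choice was then made in 1 condition and tested in the other, which shares no animal with it. Applied to the 3 epileptic rats alone, the rule chose 167 genes, all of them tested in the control rats. In the controls 143 of the 167 (85.6%) were called higher in deep CA1 by edgeR's quasi-likelihood test with the animal as a block, at an adjusted p below 0.05 over all 14113 genes tested, beside 8.3% of all genes, and 0 were called lower. Of the tested genes with a mean CPM of at least 5 over the 12 libraries, 9.38% were called higher in deep CA1. The fitted direction was deep in all 167 chosen genes. Their median fitted log2 fold change, deep over superficial, was 0.48, beside −0.0019 over all genes tested. The shares of all genes fitted higher in deep or called lower are not given, so those counts are not read as particular to the chosen genes. The median difference in log2(CPM + 1) was 0.52 in the epileptic rats that were used for the choice and 0.48 in the controls, where the median of all genes was 0.02.

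Applied in turn to the 3 controls alone, the rule chose 350 genes, and in the epileptic rats 154 of these (44.0%) were called higher in deep CA1, beside 2.93% of all 14454 genes, and 0 were called lower. Of the tested genes with a mean CPM of at least 5 over the 12 libraries, 3.68% were called higher in deep CA1. The fitted direction was deep in 321 of the 350 chosen genes. Their median fitted log2 fold change, deep over superficial, was 0.36, beside −0.00035 over all genes tested. Here too the shares of all genes fitted higher in deep or called lower are not given. The difference was above 0 in all 3 epileptic animals in 243 of them (69.4%, beside 22.1% of all 10923 genes). The median difference in log2(CPM + 1) was 0.50 in the controls and 0.33 in the epileptic rats. The share called was 27.7% without epileptic animal 1, 22.9% without animal 2 and 62.9% without animal 3. The share of all genes called in these 3 fits is not given, so the change is not read as one of the chosen genes. The lists of the 2 conditions differ in length, so their shares are not ranked here.

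The rule did not compare epileptic with control rats, and all 100 genes were measured well enough to be tested for chronic epilepsy in both sublayers. Its level filter did take in the epileptic libraries, so a gene low in controls could pass through higher levels in epileptic rats. The choice is thus not fully independent of this contrast. The genes of at least 5 CPM given below as a background met the same level filter. By edgeR's quasi-likelihood test without a replicate block no single gene of the 100 passed in either sublayer. With the block, and by DESeq2, some passed in both sublayers, as given further on. The fitted values leaned to higher levels in epileptic rats. In deep CA1 the fitted log2 fold change, epileptic over control, was above 0 in 69 of the 100 genes (50.2% of all 14261 tested) and below 0 in 31 (49.8% of all). The median was 0.18 over the 100 genes, with quartiles of −0.14 and 0.35, and 0.00093 over all genes tested. In superficial CA1 it was above 0 in 68 genes (51% of all 14321 tested) and below 0 in 32 (49% of all), with a median of 0.20 and quartiles of −0.08 and 0.53, beside 0.0068 over all genes. A fitted change of at least 2-fold was seen upward in 4 genes (2.97% of all) and downward in 1 (0.631% of all) in deep CA1. The same was seen upward in 6 genes (5.53% of all) and downward in 2 (0.67% of all) in superficial CA1. All 100 genes have a mean CPM of at least 5, whereas many of the genes tested are weaker. Among the tested genes of at least 5 CPM, 47.1% were fitted higher and 52.9% lower in deep CA1, with 1.43% at least 2-fold higher and 0.192% at least 2-fold lower. In superficial CA1 these shares were 47.5%, 52.5%, 2.86% and 0.256%.

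The lean was unequal between animals. Against the mean of the 3 controls, the median log2(CPM + 1) of the 100 genes was higher by 0.11, 0.10 and 0.24 in the deep libraries of epileptic animals 1, 2 and 3, and by 0.08, 0.19 and 0.30 in the superficial ones. Over all 10923 genes these medians lay between −0.01 and 0.01. The highest library of its group was that of animal 3 in 54 of the 100 genes in deep and 65 in superficial epileptic CA1, beside 38.2% and 39.9% of all genes. Among controls it was that of control animal 3 in 52 and 55 genes, beside 42.0% and 39.2% of all genes. Without epileptic animal 3 the median fitted change of the 100 genes was 0.07 in deep and 0.10 in superficial CA1, and without control animal 1 it was 0.12 in deep CA1. When the fit took in the outside-exon share, which differed between the conditions as given above, as a covariate, it was 0.07 in deep and 0.03 in superficial CA1. Epileptic animals 2 and 3 lay below all controls in this share, so its part and that of epilepsy cannot be told apart here.

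**Figure D5:**
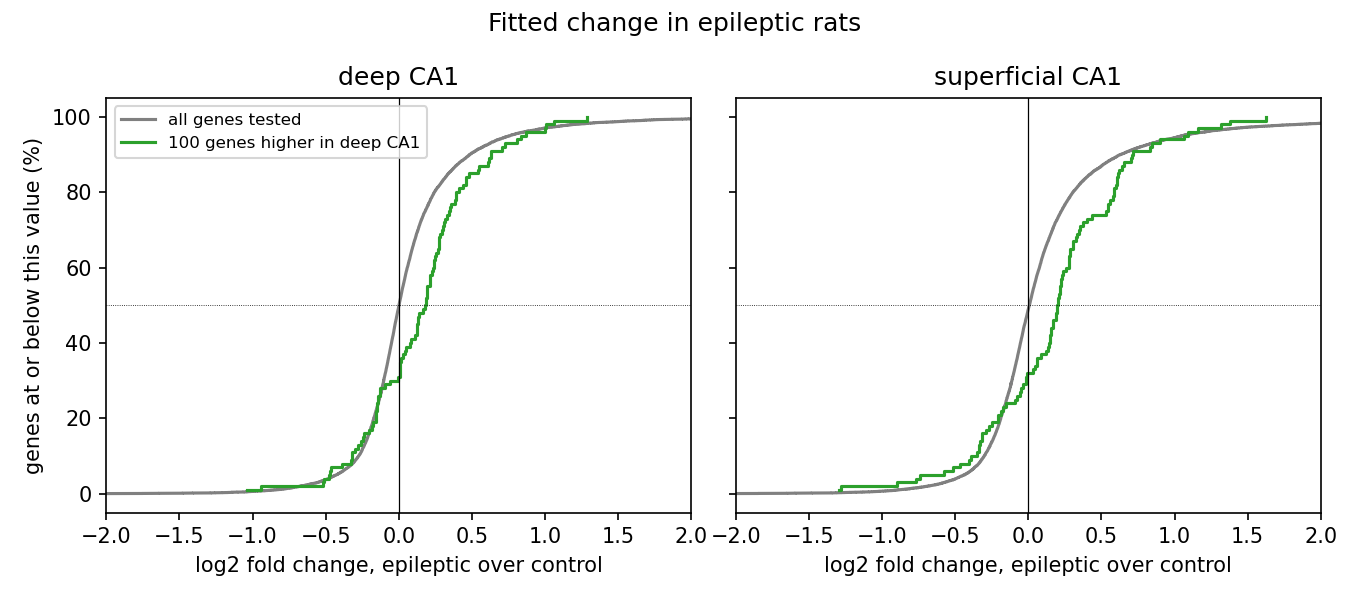
Cumulative share of genes (%) by the fitted log2 fold change, epileptic over control, in deep (left) and superficial CA1 (right), for the 100 genes (green) and all genes tested (grey). The green curve crosses 50% at 0.18 in deep and 0.20 in superficial CA1, and the grey curve crosses it near 0.

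Counts of genes that separate the conditions leaned the same way. Control and epileptic libraries did not overlap in deep CA1 for 23 genes that were higher in epileptic rats (8.72% of all 10923 genes) and for 9 that were lower (9.25% of all). In superficial CA1 these numbers were 25 (12.1% of all) and 9 (12.3% of all). An unadjusted p below 0.05 was reached by 23 genes upward (8.22% of all tested) and 9 downward (5.43% of all) in deep CA1. In superficial CA1 it was reached by 21 upward (10.2% of all) and 11 downward (8.76% of all). Among the tested genes of at least 5 CPM it was reached by 7.51% upward and 5.91% downward in deep CA1, and by 8.59% and 10.2% in superficial CA1. For the 61 genes of the superficial side the median fitted change was −0.01 in deep and −0.06 in superficial CA1, with 30 and 27 genes above 0, and the difference between the 2 sets of genes was not tested.

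With 3 animals in each condition, edgeR's quasi-likelihood test with Benjamini-Hochberg adjustment over all genes called 0 of the 100 genes in deep CA1 (0% of all genes tested) and 0 in superficial CA1 (0.014% of all). DESeq2 called 9 in deep (2.59% of all) and 20 in superficial CA1 (6.26% of all). With the replicate number as a block, edgeR called 10 in deep CA1 (1.68% of all), although animals of 1 number in the 2 conditions are different animals. Without epileptic animal 1 it called 7 in deep (3.82% of all) and 14 in superficial CA1 (9.96% of all), and without epileptic animal 3 it called 11 (1.91% of all) and 10 (2.84% of all). Without epileptic animal 2, or without any 1 of the control animals, it called 0 in both sublayers (0 to 0.00694% of all). Where the fits of this paragraph called any, the shares of the 100 genes are 7 to 20%, each set beside a background of its own. The calls thus depend on the test and on single animals.

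ENSRNOG00000057556 had the smallest p of the 100 genes in both sublayers. In deep CA1 it stood at 13.9, 13.7 and 13.6 CPM in control animals 1, 2 and 3, against 25.1, 23.8 and 25.2 CPM in the epileptic animals. In superficial CA1 the controls had 7.94, 9.47 and 9.42 CPM and the epileptic animals 19.3, 17.9 and 20.1 CPM. The epileptic libraries were above all control libraries of their sublayer, with little spread within a group. The log2 fold change was 0.83 (SE 0.10) in deep and 1.06 (SE 0.12) in superficial CA1 and passed in neither, with an adjusted p of 0.0519 and 0.0581 by edgeR. Over the alternatives tried the adjusted p ranged from 1.701e-05 to 0.327 in deep and from 6.663e-07 to 0.374 in superficial CA1. With the replicate block the deep value passed, at edgeR's adjusted p = 0.0177, and the superficial value did not, at 0.0593.

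ENSRNOG00000030877, described above, had the next smallest p among the genes with a positive fold change in deep CA1. Its level was 11.0 ± 0.593 CPM in deep control and 23.1 ± 4.43 CPM in deep epileptic libraries (SD, n = 3). The log2 fold change of 1.06 had an SE of 0.16 and missed the threshold (edgeR's adjusted p = 0.0625, 1.701e-05 to 0.345 over the alternatives). With the replicate block it passed, at 0.0174. In superficial CA1 it had 0.56 (SE 0.27), with groups that overlapped.

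On the negative side in deep CA1, ENSRNOG00000012181 had 116, 115 and 114 CPM in the deep libraries of controls 1, 2 and 3, against 63.9, 44.2 and 73.1 CPM in those of the epileptic rats. The 3 controls lay close together and above all epileptic libraries. Its log2 fold change was −0.94 (SE 0.16), which did not pass (edgeR's adjusted p = 0.0972, 1.966e-05 to 0.407 over the alternatives). ENSRNOG00000019422 had 304, 369 and 395 CPM in deep control and 141, 146 and 239 CPM in deep epileptic libraries. Again no epileptic library reached the lowest control. The log2 fold change was −1.04 (SE 0.20, edgeR's adjusted p = 0.1206, 3.55e-05 to 0.449 over the alternatives). With the replicate block both passed, at an adjusted p of 0.0222 for ENSRNOG00000012181 and 0.0137 for ENSRNOG00000019422.

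In superficial CA1, ENSRNOG00000009577 combined 1 of the wider gaps between the sublayers with lower values in epileptic rats. Its superficial libraries had 64.9, 75.2 and 56.9 CPM in controls and 32.4, 42.8 and 32.6 CPM in epileptic rats. The deep libraries had 149, 153 and 121 CPM in controls and 110, 103 and 92.4 CPM in epileptic rats. Both sublayers were lower in all epileptic animals than in any control. The log2 fold change was −0.90 (SE 0.15, edgeR's adjusted p = 0.0725) in superficial and −0.48 (SE 0.12, adjusted p = 0.1804) in deep CA1. It did not pass in either, and the superficial value had an adjusted p of 2.736e-05 to 0.374 over the alternatives. With the replicate block the superficial value passed, at edgeR's adjusted p = 0.0392. The difference between the sublayers was 1.18, 1.01 and 1.07 in log2(CPM + 1) in controls and 1.73, 1.25 and 1.48 in epileptic animals.

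ENSRNOG00000005600 had 85.6, 85.9 and 98.3 CPM in superficial control and 44.7, 54.7 and 65.6 CPM in superficial epileptic libraries. The groups did not overlap. Its log2 fold change of −0.74 (SE 0.13) did not pass (edgeR's adjusted p = 0.0817, 8.147e-05 to 0.374 over the alternatives). ENSRNOG00000016099 went the other way, with 11.3, 11.1 and 10.4 CPM in superficial control and 14.9, 19.3 and 17.4 CPM in superficial epileptic libraries. It was higher in all epileptic animals. Its log2 fold change of 0.62 had an SE of 0.13 and missed the threshold (edgeR's adjusted p = 0.1043, 0.0161 to 0.710 over the alternatives). With the replicate block neither gene passed, at edgeR's adjusted p of 0.0531 for ENSRNOG00000005600 and 0.0983 for ENSRNOG00000016099.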

How the data were processed

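RNA of 12 libraries was analysed from the raw gene counts that the authors deposited in 1 table per library, 32662 Ensembl identifiers and 5 tallies each. Per the submitters' processing notes, the tools were HTSeq 0.6.1, STAR 2.5.0c, SAMtools 0.1.19 and FastQC 0.11.3, and the build Rnor_6.0. Whether counting used strand is not stated in the labels, so overlapping, antisense and near-identical genes may share reads. Groups came from the labels. The tallies, the unnamed rows, entered neither library sizes nor tests, and the one for no feature gives the outside-exon share. The rule's CPM also left out 2 very abundant identifiers.

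Tests used edgeR 4.0.16 in R 4.3.3 (filterByExpr, minimum count 10, TMM, robust quasi-likelihood, Benjamini-Hochberg, 0.05) or, as an alternative, DESeq2 1.42.0, and were tested on simulated data. An SE is the absolute log2 fold change over the square root of F, an approximation. Epilepsy was tested within each sublayer on 3 against 3 animals. Sublayers were paired by animal, as both come from the same brains, and their deviations from the group means correlated at 0.452 to 0.833. Between conditions the numbers mark different animals, yet in deep CA1 all 3 same-numbered pairs deviated together, at 0.179 to 0.363. No 2 libraries of the same group were duplicates.

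The genes, rules and 28 gene lists were chosen with earlier results of these data known. The lists need symbols and were not analysed here. Named identifiers are the 2 of largest mean sublayer difference and, per epilepsy comparison, the 2 of smallest p in each direction.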

Additional observations from a re-analysis of the deposited data

Results flagged for a closer look

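Epileptic animal 3 stood apart from the other 5 animals when it was the animal left out of the choice. The rule chose 165 genes without it, beside 110 to 116 without any other animal. Deep CA1 was higher in this animal in 90.3% of the chosen genes and by at least 0.3 in log2(CPM + 1) in 60.0%. Of the named genes, 2 had a single animal apart in the sublayer difference. ENSRNOG00000012181 had 1.43 in log2(CPM + 1) in epileptic animal 1, beside 0.43 to 0.79 in the other 5, and ENSRNOG00000016099 had 0.76 in control animal 2, beside 0.41 to 0.47. By chance about 1 in 20 groups of values would be singled out in this way.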

How the results depend on the processing

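The number of genes that met the rule was 57 with CPM taken over all gene rows, 218 and 19 with limits of 0.2 and 0.5, 56 with a mean CPM of at least 20, and 110 to 165 with 1 animal left out, 165 being without epileptic animal 3. With TMM-scaled CPM it was 88, of which 85 are among the 100. The median difference of all genes, −0.03 to 0.03 in the 6 animals as reported, was −0.09 to −0.04 with CPM over all gene rows. The lowest share above 0 in an animal left out was 95.0% with TMM-scaled CPM, 96.7% with a mean CPM of at least 20 and 94.6% with a pseudocount of 5, against 89.0% with a mean CPM of at least 1 and 88.5% with a pseudocount of 0.5, all chosen after seeing the data. Epilepsy calls among the 100 genes in deep CA1 were 0 as reported. With the share of all genes called in brackets, they were 9 with DESeq2 (2.59%), 1 with RLE size factors (0.0561%) and 1 with all 12 libraries (0.325%). They were 4 with no low-count filter (0.461%), 10 with the replicate block (1.68%) and 1 without the 2 identifiers (0.0561%). With the outside-exon share as a covariate, added after seeing the data, they were 5 (0.694%). With 1 animal left out they were 0 to 11 (0 to 3.82%). In superficial CA1 they were 20 with DESeq2 (6.26%), 7 with all 12 libraries (1.89%) and 3 with no low-count filter (0.583%). They were 3 with the replicate block (0.175%), 1 with the covariate (0.0349%) and 0 to 14 with 1 animal left out (0 to 9.96%). Same-numbered animals correlated at −0.0304 to 0.292 in superficial CA1 and share only a number. With no replicate block the share called in the condition not used for the choice was 39.5% read in controls, beside 1.39% of all genes, and 0% read in epileptic rats, where that fit called 0 of all 14454 genes and so says nothing of the chosen ones. With 1 tested animal left out the share called was 79.0 to 88.6% read in controls and 22.9 to 62.9% read in epileptic rats. The share of all genes called in those fits is not given. The cause of these changes was not tested. No gene named for an epilepsy comparison changed direction there under any alternative tried.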
